A study of Drosophila melanogaster with 3 samples.

Results

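Atg1, Atg2, Atg5, Atg6, Atg7, Atg8a, Atg9, Atg13, Atg17 and Atg18a are 10 of the core autophagy genes of Drosophila melanogaster, out of 13968 protein-coding genes on the chromosome arms. They were taken by name and not by a rule on binding values, though the list was drawn up with earlier results of these data known. Binding of FoxP, a forkhead transcription factor also called fd85E, was mapped at them by chromatin immunoprecipitation with sequencing, using an antibody against GFP. Chromatin came from whole prepupae, males and females together, of 1 transgenic line in which FoxP carries eGFP at its C-terminal end. The labels name neither the age within the prepupal stage nor the promoter that drives the fusion. The 3 biological replicates form 1 group with no second condition, so genes and replicates are compared and no treatment effect exists. All tissues were in one extract, and a site bound in few cells cannot be told apart from a site bound weakly in many.

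Autophagy wraps cytoplasm in a double membrane, the autophagosome, and delivers it to lysosomes for breakdown. The Atg1 kinase complex starts the process, a lipid kinase complex with Atg6 marks the growing membrane with phosphatidylinositol 3-phosphate, Atg9, Atg2 and Atg18a bring in membrane and lipid, and a ubiquitin-like system with Atg5 and Atg7 attaches Atg8a to it. In flies the steroid ecdysone sets off autophagy in the larval fat body, and autophagy takes part in the removal of the larval salivary glands and midgut at metamorphosis, the time around which prepupae are collected.

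The authors deposited 1 list of regions for each replicate (30000, 24326 and 22698 regions for replicates 1, 2 and 3) and 1 for the reads of all replicates together (30000). A shorter thresholded list was the 2415 pooled regions with the highest signal value, a score of the authors' peak caller with no stated scale. The last region inside had a signal value of 134.19 and the first outside 134.18. A summit is the position the authors gave as the peak of a region. It was counted as a promoter summit when it lay within 500 bp of any annotated start of a gene. Read depths were not analysed here, so pooled signal values are given without an estimate of their error. Their spread is given as the rank and signal value of the same region in each replicate list. Lists differ in length and their signal values have no common stated scale, so ranks are compared first.

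Stretches of genome under the thresholded regions at Atg17, Atg2 and Atg1 are shown so that the forkhead heptamers at each site can be read in place. They are dm6 reference sequence (Release 6, RefSeq), 5′ to 3′ on the strand of the named autophagy gene, and cover the exon-free bases within 300 bp centred on the summit. Capitals mark the 8 forkhead heptamers searched for on both strands, described with the motif counts. The stretches are chr3R:5669335-5669587 (plus strand) upstream of Atg17, chr3L:2774008-2774195 (plus strand) upstream of Atg2, chr3L:12793035-12793334 (minus strand) in an Atg1 intron and chr3R:5672734-5672913 (plus strand) in an Atg17 intron. The summit is at base 103 of the Atg17 promoter stretch, base 38 of that of Atg2, base 151 of the Atg1 stretch and base 30 of the Atg17 intron stretch.
Atg17 promoter: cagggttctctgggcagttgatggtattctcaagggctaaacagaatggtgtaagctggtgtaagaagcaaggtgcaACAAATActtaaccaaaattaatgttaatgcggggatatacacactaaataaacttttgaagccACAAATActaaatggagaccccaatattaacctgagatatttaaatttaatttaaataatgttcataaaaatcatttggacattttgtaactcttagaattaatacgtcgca
Atg2 promoter: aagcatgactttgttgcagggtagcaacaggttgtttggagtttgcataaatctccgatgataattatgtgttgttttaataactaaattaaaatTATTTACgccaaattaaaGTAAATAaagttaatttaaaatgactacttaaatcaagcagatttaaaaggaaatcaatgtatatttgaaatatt
Atg1 intron: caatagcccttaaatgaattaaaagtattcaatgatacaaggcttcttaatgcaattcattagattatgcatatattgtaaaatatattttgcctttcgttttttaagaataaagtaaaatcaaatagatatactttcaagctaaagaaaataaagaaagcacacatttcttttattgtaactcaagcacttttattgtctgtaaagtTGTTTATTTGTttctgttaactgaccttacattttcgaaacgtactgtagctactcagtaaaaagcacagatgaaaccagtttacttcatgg
Atg17 intron: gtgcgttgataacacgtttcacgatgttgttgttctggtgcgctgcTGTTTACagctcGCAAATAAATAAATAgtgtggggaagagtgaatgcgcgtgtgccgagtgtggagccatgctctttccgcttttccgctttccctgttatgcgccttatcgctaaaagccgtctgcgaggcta

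Thresholded promoter summits were found at 3 of the 10 genes, Atg17, Atg2 and Atg18a, where 8.96% of all protein-coding genes had one. With a window of 200 bp the count was 1 of 10, Atg18a, beside 6.12% of all genes. With summits anywhere inside the gene counted as well, the number was 5 of 10, with Atg1 and Atg7 added, against 12.3% of all genes. This count was 2 of 10, Atg17 and Atg18a, when regions had to be held by all 3 replicates (7.67% of all genes). Leaving out replicate 1 or replicate 3, and keeping regions held by both others, also gave 2 of 10 (8.96% and 8.81% of all genes). The pooled list, which also holds background regions, had a promoter summit at 7 of 10 (37.8% of all genes) and a summit in the gene or its promoter at 8 of 10 (46.8% of all genes). Atg9 and Atg13 had none. These are counts of a short named list beside the genome-wide share, with no test of the difference. In all, 35 pooled regions were counted for these genes, of which 6 were thresholded, beside 2395 of all 29980 pooled regions on the arms. Of the 35 summits, 22 were in introns of the gene, 4 in 5′ UTRs, 2 in 3′ UTRs, 1 in a coding exon and 6 upstream of the gene's span. Shares of these locations over all pooled regions were not computed, so the location counts only describe these genes. Atg1 held 15 of the 35 regions and Atg17 held 7. Atg1 and Atg17 are the only members of at least 10000 bp (20688 and 10218 bp). Both had a thresholded summit in the gene or its promoter, as did 35.3% of all genes of that length.

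**Figure D1:**
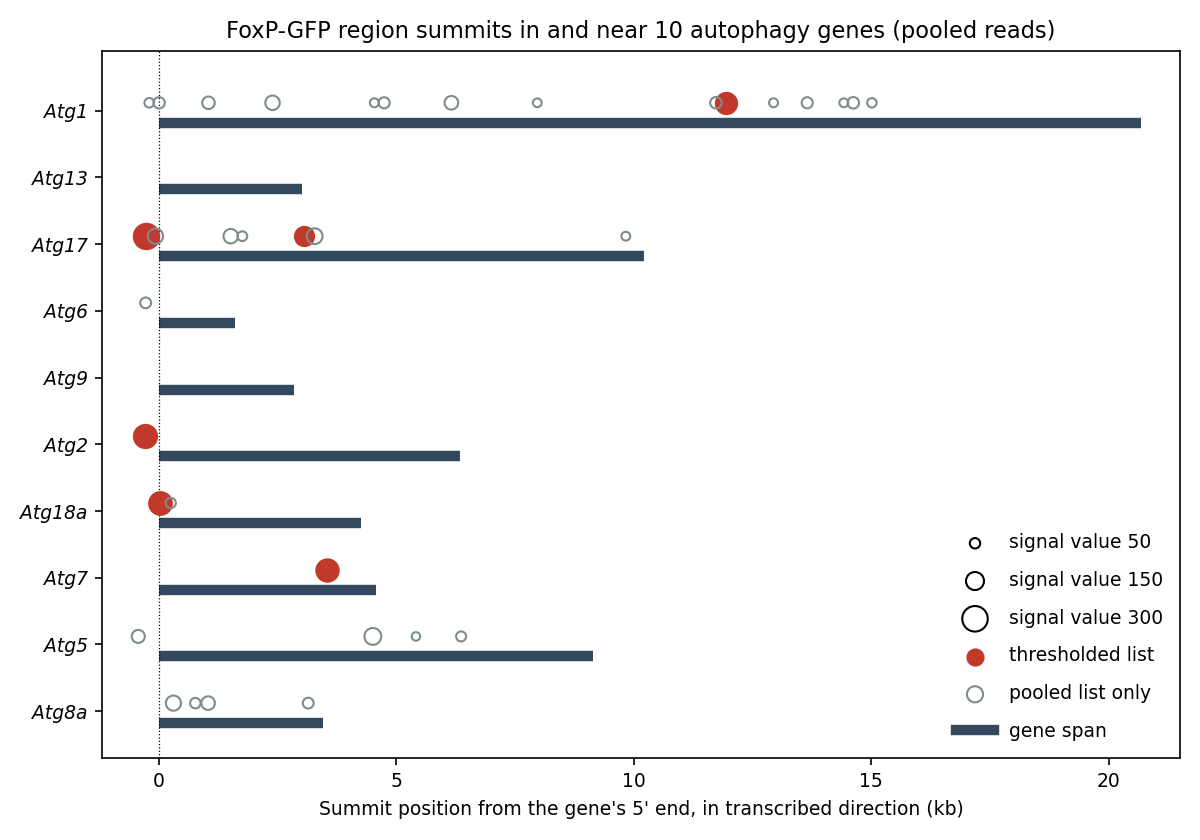
Position of each region summit of the pooled list along the 10 autophagy genes, in kb from the gene's 5′ end in the direction of transcription. Circle area is proportional to the signal value, filled red circles are thresholded regions and dark bars are gene spans. Filled circles lie at the 5′ ends of Atg17, Atg2 and Atg18a and inside Atg1, Atg17 and Atg7, and the lines of Atg9 and Atg13 are empty.

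Of the 3 genes of the initiation kinase complex, Atg17 held the best-ranked region of the whole set. Atg17 encodes the scaffold of the complex, the counterpart of mammalian FIP200. Its promoter region (chr3R:5669229-5669644) ranked 451 in the pooled list with a signal value of 296.415. In replicates 1, 2 and 3 the region ranked 1592, 328 and 431, with signal values of 65.9, 120 and 90.3. Replicate 1 was lowest for this site, but each of the 3 placed it among its own 2415 best-ranked regions. The summit lay 276 bp upstream of the Atg17 start and 103 bp upstream of the start of Xe7, which is transcribed the other way. The promoter regions next in pooled rank had signal values of 296.831 (rank 450, at Kap-alpha3, an importin alpha gene, and Son) and 296.104 (rank 452, at CG9399). A weaker pooled region overlapped the Atg17 promoter region, with its summit 77 bp upstream of the start (rank 3671, signal value 107).

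Atg17 also held a thresholded region in an intron, 3050 bp past the start (chr3R:5672555-5672970). Its pooled rank was 1556 and its signal value 170. The replicate ranks were 1585, 4324 and 963, and the signal values 66.0, 34.6 and 65.1 for replicates 1, 2 and 3. Replicate 2 was the low one and placed it outside its 2415 best-ranked regions. A further intronic summit 3276 bp past the start ranked 3284 (signal value 114), outside the thresholded list.

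Atg1 encodes the serine/threonine kinase of the complex. Its thresholded region was not at the promoter but in an intron, 11932 bp past the start (chr3L:12792976-12793391, pooled rank 1030, signal value 207). In replicates 1, 2 and 3 it ranked 461, 4526 and 1436, with signal values of 112, 33.8 and 54.3, so replicate 1 was high and replicate 2 low. The same bases are an intron of CG42709, a gene on the opposite strand nested in Atg1. The summit was 1966 bp past the nearest of the annotated CG42709 starts, which is not the outermost one. The Atg1 promoter itself carried only 2 weak pooled regions. The better-ranked had its summit on the start (rank 10181, signal value 59.2). It was seen in replicate 1 (rank 16017) and replicate 3 (rank 11178) and not in replicate 2. The other had its summit 208 bp upstream (rank 18874, signal value 42.3), with a counterpart in replicate 2 only (rank 7864). Outside the thresholded list, the best summit in the gene lay 2389 bp past the start (rank 4415, signal value 96.4). Just beyond the window, 1444 bp upstream of the Atg1 start, was a thresholded region of rank 1167 (signal value 195). Its summit was in an intron of the neighbour Sap130, 374 bp past the nearest of the annotated Sap130 starts. It ranked 1214, 2413 and 666 in replicates 1, 2 and 3 and was not counted for Atg1.

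Atg13 encodes the regulatory subunit that binds Atg1 and Atg17. No region of the pooled list or of any replicate list lay in Atg13 or within 500 bp of its start (chr3R:8349815-8352817). The nearest pooled summit was 5356 bp from the start, at a region of rank 609 and signal value 265. Among the initiation genes, then, Atg17 had promoter and intron regions, Atg1 an intron region, and Atg13 no region at any rank.

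Atg6, the fly counterpart of Beclin 1 in the lipid kinase complex, had no thresholded region. Its 1 pooled region ranked 12010 with a signal value of 53.9, and its summit was 283 bp upstream of the Atg6 start. Replicate 1 listed it at rank 7651 (signal value 28.2), and replicates 2 and 3 had no region there. The starts of Atg6 and Pisd are 1 bp apart on opposite strands, and this summit falls in an intron of Pisd. Pisd encodes phosphatidylserine decarboxylase, which makes phosphatidylethanolamine, the lipid to which Atg8a is attached.

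Atg9 encodes the transmembrane protein of the vesicles that seed the autophagosome. It had no pooled region, and the nearest pooled summit was 6781 bp from its start (rank 979, signal value 212). Replicate 2 had a region 186 bp upstream of the start at rank 19925 (signal value 16.6) and replicate 3 one 211 bp upstream at rank 6204 (signal value 26.5). Replicate 1 had none. Neither was among the 2415 best-ranked regions of its replicate.

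Atg2 encodes the bridge-like protein that carries lipid into the growing membrane. Its promoter region (chr3L:2773837-2774252) had pooled rank 721 and a signal value of 247. Replicate 1 placed it at rank 1324 (signal value 71.5) and replicate 3 at rank 923 (66.4), and no region of replicate 2 lay there. The nearest summit of replicate 2 was 7292 bp away. The pooled summit was 293 bp upstream of the Atg2 start and 38 bp upstream of the start of CG12093 on the other strand. The summit of replicate 1 was 178 bp closer to Atg2 than the pooled one, at 115 bp from the Atg2 start, while that of replicate 3 was 1 bp from the pooled one.

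Atg18a encodes a WIPI protein that binds phosphatidylinositol 3-phosphate and works with Atg2. Its promoter region (chr3L:8186675-8187090) had pooled rank 786 and a signal value of 237. Replicates 1, 2 and 3 ranked it 1231, 987 and 682, with signal values of 74.1, 74.3 and 75.1. Of the 4 thresholded regions listed in all 3 replicates, its ranks lay closest together. Atg18a has 2 annotated starts, and distances are from the first. The pooled summit was 26 bp past the first start, in the 5′ UTR. The summits of replicates 1 and 2 were 9 and 15 bp upstream of it, and that of replicate 3 was 52 bp past it. The side of the first start was thus not the same in each replicate, while all these summits lay upstream of the second start. The pooled summit lay 212 bp upstream of the start of ERR, which encodes the estrogen-related nuclear receptor, a regulator of carbohydrate metabolism in larvae. The starts of Atg18a and ERR are 186 bp apart on opposite strands.

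**Figure D2:**
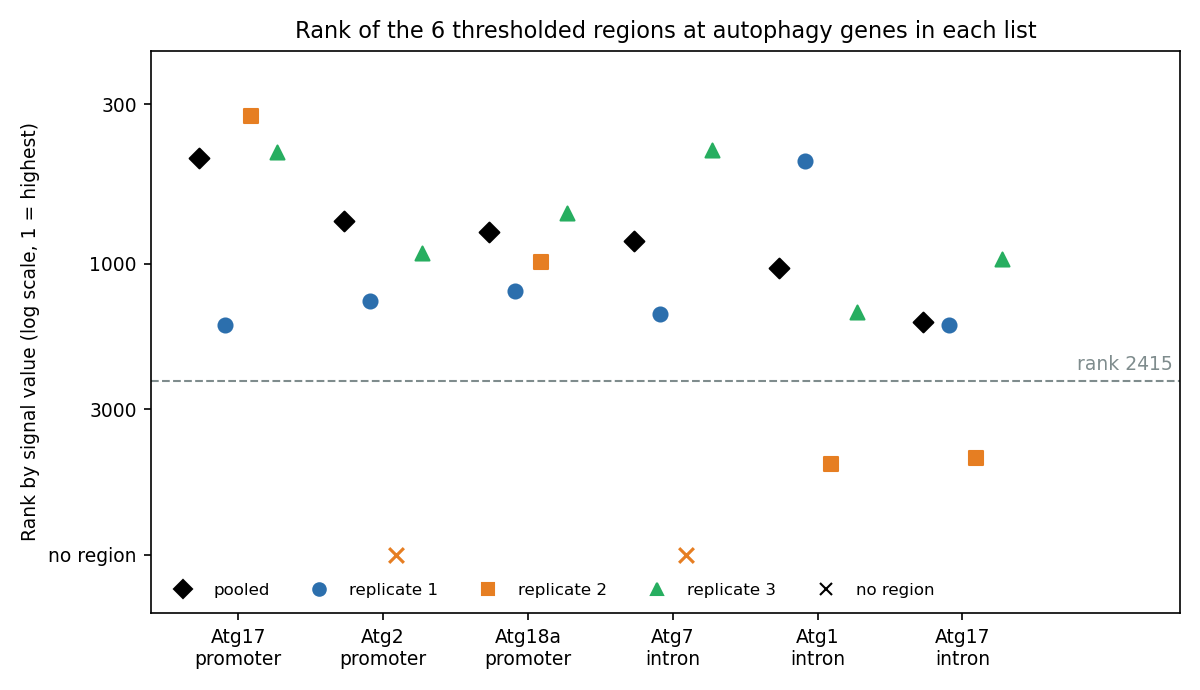
Rank of the 6 thresholded regions at autophagy genes in the pooled list and in each replicate list (log scale, rank 1 at the top), with the limit of the 2415 best-ranked regions as a dashed line and crosses where a replicate had no region. All points of replicates 1 and 3 lie above the dashed line, and those of replicate 2 do so at the Atg17 and Atg18a promoters only.

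Within the conjugation system, Atg7 encodes the E1-like enzyme that activates the ubiquitin-like proteins. A thresholded region (chr2R:18621307-18621722, pooled rank 840, signal value 229) lay in an Atg7 intron 3529 bp past the start. Replicates 1 and 3 ranked it 1466 and 422, with signal values of 68.4 and 90.9, and the nearest summit of replicate 2 was 1690 bp away. The summit was 26 bp upstream of the start of CG5335, a gene on the other strand that begins inside Atg7. At the Atg7 start itself the pooled list had no region. Replicate 1 listed a region 189 bp upstream of it at rank 12364 and replicate 3 one 76 bp upstream at rank 16002.

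Atg5, whose product is joined to Atg12 to form part of the enzyme that acts on Atg8a, stood just outside the threshold. Its best region was in an intron 4503 bp past the start (chrX:7319059-7319474), with pooled rank 2537 and a signal value of 131. The replicate ranks of 2636, 3059 and 3320 were close together, with signal values of 50.9, 41.5 and 36.3, and none was among the 2415 best. This intron is also intronic to CG1677, which spans the locus. The promoter summit, 439 bp upstream of the Atg5 start and 5 bp upstream of the start of Dok, ranked 6328 (signal value 78.2). Dok encodes an adaptor protein of tyrosine kinase signalling. Replicate 1 ranked this region 2165, replicate 2 11167 and replicate 3 9599. The replicate 2 summit lay 136 bp farther from the Atg5 start than the pooled one. Replicate 2 thus had no summit within 500 bp of that start. A much stronger region lay 1239 bp upstream of the Atg5 start, in an intron of Dok 795 bp past the Dok start (pooled rank 198, signal value 419). Its replicate ranks were 191, 205 and 194. It was outside the window and not counted for Atg5.

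Atg8a encodes the ubiquitin-like protein that coats the autophagosome membrane, the counterpart of mammalian GABARAP. It has 3 annotated starts and 4 pooled regions, none of them thresholded. The best was in a coding exon 302 bp past the outermost start, with pooled rank 3732 and a signal value of 106. In replicates 1, 2 and 3 it ranked 2687, 14417 and 4132, with signal values of 50.5, 19.2 and 32.5, so replicate 2 was again low. The next region had its summit 1 bp past an internal start (rank 5509, signal value 84.9). Another region, 269 bp upstream of that internal start, ranked only 13533 in the pooled list but 3043 in replicate 3 and 2773 in replicate 2, whose summit was 199 bp away. Replicate 1 had no region there.

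**Figure D3:**
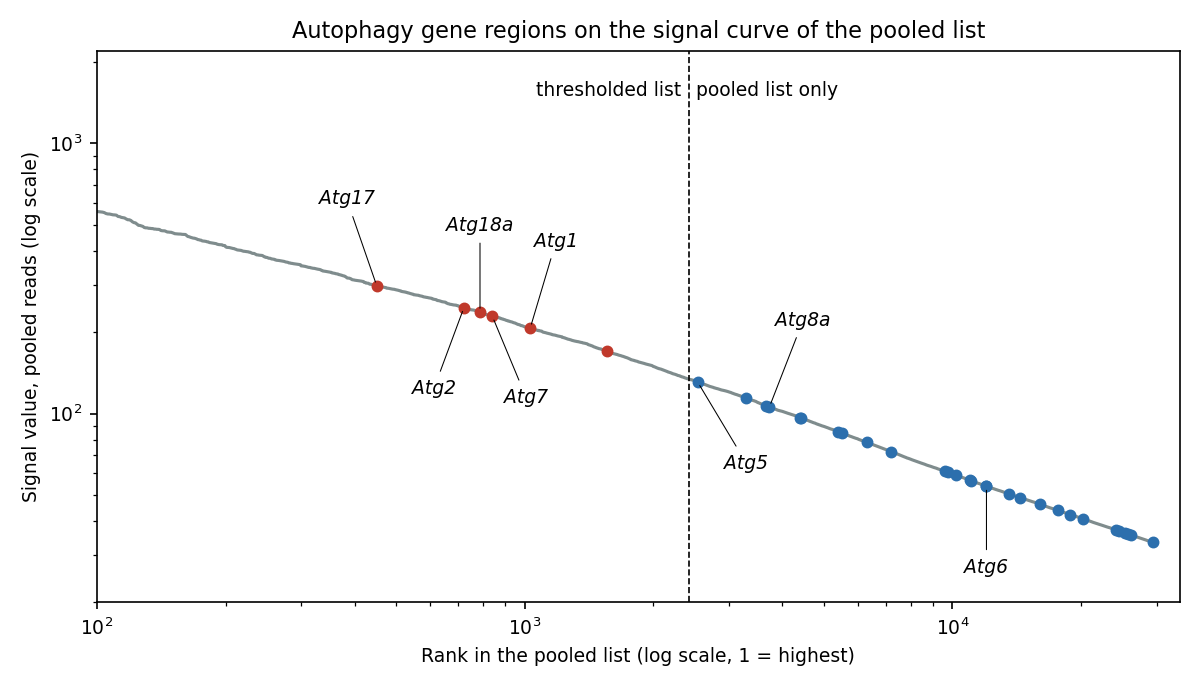
Signal value against rank for the pooled list (grey line, both axes on log scales), with the regions at autophagy genes as points, red inside and blue outside the thresholded list. The dashed line is the threshold, and each gene's name is at its best-ranked region. Atg17 leads at 296, and Atg5 is the nearest gene outside at 131.

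The 6 thresholded regions had signal values from 170 to 296 with a median of 233, beside a median of 192 over the 2395 regions of that list on chromosome arms. The replicates held them unevenly. Replicate 1 and replicate 3 had each of the 6 among their 2415 best-ranked regions, where these replicates held 81.0% and 79.9% of all thresholded arm regions. Replicate 2 held 2 of the 6, the Atg17 and Atg18a promoters, and 83.4% of all. In replicate 2 the regions at Atg2 and Atg7 had no counterpart at any rank, which was so for 24 of 2395 thresholded arm regions (1.00%), and the intronic ones at Atg1 and Atg17 ranked 4526 and 4324. As a result 2 of 6 regions (33.3%) were held by all 3 replicates, against 1415 of 2395 (59.1%). Counted by gene, 2 of 10 had a promoter region held by all 3, against 5.24% of all protein-coding genes. The part of library quality or depth in the low values of replicate 2 was not tested. Over all 35 pooled regions at these genes, 13 had a counterpart in each of the 3 replicates, 13 in 2, 7 in 1 and 2 in none. No share over all pooled regions is given beside these counts. A replicate region could be the counterpart of more than 1 pooled region. At Atg17 this was so for the replicate 2 regions of rank 4324 and rank 9444.

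Most of these genes start close to a neighbour that runs the other way. The start of another protein-coding gene on the opposite strand lay within 1000 bp upstream for 9 of the 10, all but Atg13, a feature present at 5052 of 13968 genes (36.2%). The gap was 1 bp at Atg6 and Pisd, 186 bp at Atg18a and ERR, 199 bp at Atg8a and BTBD9, and 205 bp at Atg7 and Sec6, a gene of the exocyst. It was 270 bp at Atg9 and CG7747, 331 bp at Atg2 and CG12093, 379 bp at Atg17 and Xe7, 444 bp at Atg5 and Dok, and 786 bp at Atg1 and Sap130. Of these 9 genes 3 had a thresholded promoter summit, as did 13.2% of all genes with such a neighbour. Each of the 3 summits was also within 500 bp of the neighbour's start. Of all 1089 thresholded promoter summits, 272 (25.0%) were that close to starts of at least 2 genes. A region of 416 bp cannot be assigned to one of the genes by position. At Atg17 and Atg2 the neighbour's start was the nearer one, and at Atg18a the autophagy gene's. Among all 1252 genes with a thresholded promoter summit another gene's start was nearer for 251. The Atg7 summit, 26 bp from the start of CG5335, likewise lay at the promoter of another gene. Of the 6 regions, the intronic ones at Atg1 and Atg17 were the only ones with no start of any protein-coding gene within 500 bp. The other 4 had one, as did 1089 of the 2395 arm summits in the thresholded list (45.5%).

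**Figure D4:**
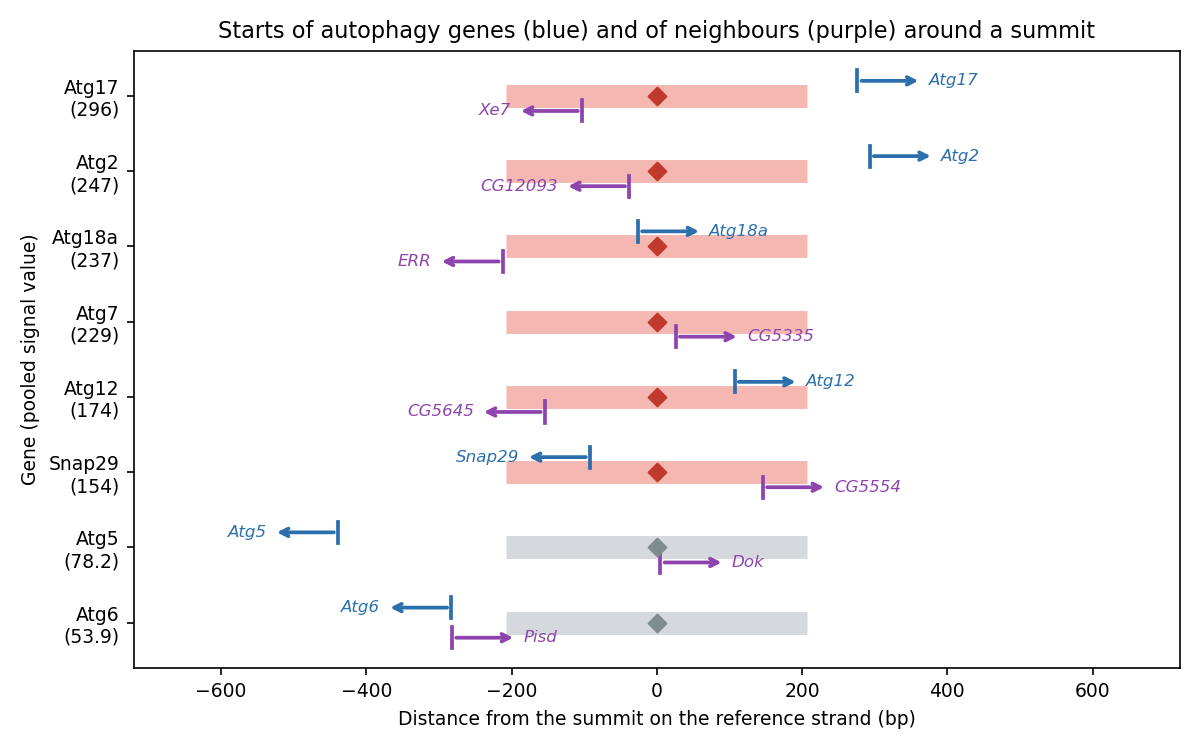
Starts of autophagy genes (blue arrows, pointing in the direction of transcription) and of the neighbour nearest the summit (purple arrows) around 8 region summits, in bp from the summit on the reference strand. Shaded bars are the regions, red for thresholded and grey for pooled only, with signal values in brackets. At Atg17, Atg2, Atg5 and, by 1 bp, Atg6 the purple start is closer to the summit than the blue one. The start of Atg7 is beyond the plotted range, so the purple start is the closer one there too.

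Forkhead proteins bind sequences around a TAAACA core, so windows of 100 bp to either side of a summit were searched on both strands for the 8 heptamers of the form NNAAANA with A or G as the first base and C or T at both other open positions. At least 1 was present at 5 of the 6 summits, against 50.8% of all thresholded arm summits and 42.4% of all protein-coding starts. The Atg17 promoter, Atg2 and Atg1 windows held 2 each and the Atg17 intron window 4, and the Atg7 window also held at least 1. In the printed sequences, overlapping copies appear as 1 longer run of capitals, as in the Atg17 intron and the Atg1 intron. The Atg18a window held none. The heptamers are rich in A and T, and the GC share of the windows was 34.3% at the Atg17 promoter, 30.3% at Atg2, 38.8% at Atg18a, 24.9% at Atg1 and 47.8% at the Atg17 intron, with a median of 36.8% over all thresholded arm summits. The Atg17 intron window therefore combined the most heptamers with the highest GC share of these 5. A match is only a match of letters, and no binding site is assigned by it.

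The GAGA factor core GAGAG was present at 2 of the 6 summits, beside 33.3% of thresholded arm summits and 25.0% of starts. The general E-box CANNTG, which includes CACGTG, was present at 5 of 6, beside 60.5% and 63.9%. CACGTG, a core within the sites of the Mitf/TFEB family that drives lysosome and autophagy genes, was present at none of the 6 windows and at 2.30% of thresholded arm summits. TATCGATA, the DREF site, was also at none, beside 1.84% of thresholded arm summits and 6.44% of starts.

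A list of 30 other genes of the pathway was read in the same way. Thresholded promoter summits were at 2 of them, Atg12 and Snap29, a share of 6.67% beside the 8.96% of all genes, and foxo added an intronic region (3 of 30 beside 12.3%). None of the 30 had a promoter region held by all 3 replicates, where 5.24% of all genes had one. In the pooled list 14 of 30 had a promoter summit and 16 of 30 a summit in the gene or its promoter, beside 37.8% and 46.8%. Of these 30 genes 16 had a head-to-head neighbour within 1000 bp, and both Atg12 and Snap29 were among them.

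Atg12 encodes the ubiquitin-like protein joined to Atg5, and was the 1 gene of 7 further conjugation genes with a thresholded summit. Its promoter region (chr3L:12136652-12137067) had pooled rank 1486 and a signal value of 174, with the summit 107 bp upstream of the Atg12 start and 154 bp upstream of that of CG5645. Replicates 1, 2 and 3 ranked it 2897, 974 and 2475, with signal values of 48.4, 75.0 and 42.3. Here replicate 2 was the high one, in contrast to Atg2, Atg7 and Atg1.

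Snap29 encodes a SNARE protein that fuses autophagosomes with lysosomes, and was the 1 gene of 9 fusion genes with a thresholded summit. Its region (chr2R:23844647-23845062) had pooled rank 1893 and a signal value of 154, 92 bp upstream of the Snap29 start and 146 bp upstream of that of CG5554. The replicate ranks were 2849, 1101 and 3764 and the signal values 48.8, 70.8 and 34.2, again highest in replicate 2. Rab7, the late endosome GTPase of the same step, was below the threshold at rank 2776 (signal value 124).

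None of the 4 further genes of the lipid kinase complex had a thresholded region. Uvrag, a subunit of the endosomal form of the complex, came closest, at rank 2451 with a signal value of 133, and its summit was 59 bp from the start of Drep4, a nuclease gene of the DNA fragmentation factor family. Vps15, the regulatory subunit of the lipid kinase, had a promoter region of rank 2665 (signal value 127). Among 5 regulators, foxo, a forkhead gene of the insulin pathway, held an intronic region 3689 bp past a start at pooled rank 425 with a signal value of 304. The replicate ranks there were 257, 921 and 354, and all 3 replicates held it. The foxo promoter region ranked 2549 (signal value 130), outside the threshold.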

How the data were processed

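FoxP-eGFP chromatin from 3 biological replicates was sonicated to fragments of 200 to 800 bp, per the labels. Per the deposited file sheets, the replicate lists came from the aligned reads of that replicate and 1 control file, the pooled list from the reads of all 3 replicates, and the thresholded list from an irreproducible discovery rate step. Neither the labels nor the file sheets used here name the aligner, the caller or its settings. Each region has a signal value (a score with no stated scale), a −log10 q-value and a summit offset deposited by the authors. The signal value ranked regions within a list. The −log10 q-value was 2.07437 for each of the 6 thresholded regions at the members and was not used further. The thresholded list was equal to the 2415 pooled regions with the highest signal value, of which 2395 are on the arms.

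Coordinates are dm6, 1-based. Gene models came from Ensembl release 115 (BDGP 6.54), and sequence from the RefSeq copy of Release 6. Scripts ran in Python 3.11.15 with SciPy 1.17.1 and Matplotlib 3.10.9. The replicate counterpart of a pooled region was the replicate region holding its summit, or else the nearest summit within 200 bp. A region was held by a replicate when 1 of its 2415 best-ranked regions overlapped it by at least 1 bp. Rules for summits and replicate counterparts were tested on simulated regions.

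Members, the pathway list, the motifs and the head-to-head rule (opposite-strand start within 1000 bp upstream) were chosen with earlier results of these data known. Genes named are the 10 members, genes with a start within 500 bp of a member's summit, pathway genes with a thresholded promoter summit and the promoter regions ranked next to the best member. Regions just beyond the window, pathway genes just below the threshold, the foxo intron and head-to-head partners were named after their values were seen. No test was run, since there is 1 group. Alternatives were other windows, region overlap, the gene's 5′ end only, fewer regions, other replicate rules and each replicate left out. Lists in dm3 were not used here, since the gene models are dm6. Sequences under the remaining thresholded regions are not reported here.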

Additional observations from a re-analysis of the deposited data

How the results depend on the processing

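The count of members with a thresholded promoter summit was 3 with windows of 500 bp (8.96% of all genes) and 1000 bp (10.8%). It was also 3 with region overlap (9.8%), the gene's 5′ end only (7.14%) and the 1197 better-ranked regions (5.02%). It was 1, Atg18a, with a window of 200 bp (6.12% of all genes). Counting inside the gene as well, 5 members fell to 2 when regions had to be held by all 3 replicates (7.67% of all genes). Each replicate was also left out, keeping regions held by the other 2. The promoter count was then 2, 3 and 2 without replicates 1, 2 and 3 (6.22%, 5.91% and 6.14% of all genes). The gene count was 2, 5 and 2 (8.96%, 8.51% and 8.81%). The count of other pathway genes went from 2 (8.96% of all genes) to 0 with the better-ranked regions (5.02%). It was also 0 with regions held by all 3 replicates (5.24%) and with replicate 1, 2 or 3 left out (6.22%, 5.91% and 6.14%). Members with a promoter region held by all 3 replicates were 0 with 1207 best-ranked regions per replicate (2.96% of all genes) and 2 with 4830 (7.67%). Of 18 pairs of a thresholded region and a replicate, 16 had a counterpart, and 10 to 12 of the 12 that remain when a replicate is left out. Forkhead heptamers were at 3 of 6 summits within 50 bp (31.2% of thresholded arm summits) and 5 within 200 bp (72.5%), windows added after the data had been seen. With counterparts only within 100 bp, 14 of the 18 pairs had one, and those of Atg2 in replicate 1 and of the Atg17 intron in replicate 2 were lost. The ranks of the counterparts that were found were the same under each rule.

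Signal values have no stated scale and read depths were not analysed here, so no interval can be given for a region. With 10 genes, each gene moves a count by 10 percentage points. No paired analysis was possible because the 3 replicates form 1 group.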
